A study of Mus musculus with 49 samples.

Results

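Contacts between different chromosomes were described here through 2 of the 15 measures that the authors deposited for each cell of a single-cell Hi-C experiment. The measure f_trans is the share of a cell's contacts that join different chromosomes, called the trans share below and given in percent. The measure trans_align is a score of alignment between chromosomes, called the alignment score below, and its formula and scale are not given in the sources used here. Both were taken for every cell that passed the authors' quality control, 4098 of 5871 cells. Levels of the alignment score were compared only within a table.

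The cells were mouse embryonic stem (ES) cells fixed with formaldehyde, from a diploid F1 hybrid line (129/SV-Jae by castaneus) and from the haploid line H129-1. Culture was in 2i without feeder cells, where inhibitors in place of serum hold ES cells undifferentiated, or with fetal bovine serum on feeders, after which feeders were depleted with beads and Oct-3/4-positive cells were sorted. The deposited tables hold 1247 passing haploid cells of either medium in 19 libraries, 1992 diploid 2i cells in 18 libraries and 859 diploid serum cells in 8 libraries. Haploid cells fall into the conditions 2i_all, 2i_G1 and Serum_G1/S. Diploid 2i cells fall into 1CDU, NoSort and 4 sort gates named for G1, early S, mid S and late S with G2, and diploid serum cells into 1CDS1 and 1CDS2. What the names 1CDU, 1CDS1 and 1CDS2 stand for is not given in the sources used here. Haploid and diploid cells are each represented by a single line. Since nothing in the labels ties libraries to separate cultures, every p-value is about the spread of libraries, which may be technical. The median passing cell had 80858 contacts in the haploid table, 205511 in the diploid 2i table and 255605 in the diploid serum table.

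In an interphase nucleus each chromosome keeps largely to its own territory, and contacts between chromosomes form where territories touch and intermingle. Chromosomes that condense for mitosis draw together along their own length and share fewer contacts with each other. After division, chromosomes can lie side by side from centromere to telomere, an arrangement known as the Rabl orientation, which loosens as the nucleus decondenses. In Hi-C, ligation between loose fragments also joins different chromosomes at random, so a high trans share is commonly read as a sign of poor library quality. The share of undigested fragment ends (f_no_digestion) and the number of contacts of each cell are therefore given beside the 2 measures.

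The trans share of a passing cell lay between 1.00% and 19.9% in the haploid table, with a median of 6.74%. It lay between 0.590% and 14.7% in diploid 2i cells, with a median of 5.87%, and between 1.56% and 14.6% in diploid serum cells, with a median of 6.47%. The highest passing diploid cells stopped just under 15%, while 62 passing haploid cells lay above 15%. Of the 932 diploid 2i cells that failed, 83 had a trans share above the highest passing cell, the lowest of these at 15.0% and the highest at 62.5%. Of the 316 failing diploid serum cells, 9 lay above the highest passing cell, from 15.3% to 69.5%. Of these, 53 cells in 2i and 7 in serum had at least as many contacts as the lowest passing cell, 20024 in 2i and 20014 in serum. In the haploid table a trans share was listed for only 10 of 525 failing cells, none of them above the highest passing cell. Most failing cells with a value lay inside the passing range, with a median of 5.54% in diploid 2i and 7.01% in serum. The upper end of the passing range was close to 15% in both diploid tables and higher in the haploid table. The alignment score of passing cells ran from -0.0890 to 0.600 in the haploid table, from -0.0284 to 0.576 in diploid 2i cells and from -0.000485 to 0.548 in diploid serum cells.

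Contacts between chromosomes rose from G1 to early S and fell from early S to late S and G2 in all 3 tables. The phase of each cell is the authors' group, and whether either measure entered that grouping is not stated. The value of a library is the mean over its cells of a phase, where at least 10 passed. In haploid cells the library means of the trans share ran from 4.56% in G1 at the lowest through a median of 5.88% to 8.76% at the highest, over 9 libraries. In early S they ran from 5.04% through 6.94% to 11.3% (13 libraries), and in late-S/G2 from 4.34% through 5.93% to 9.04% (9 libraries). The ranges of the 3 phases overlapped in haploid cells, whose libraries lay apart by medium. In diploid 2i cells the means ran from 4.30% through 5.60% to 8.24% in G1 (10 libraries), from 5.22% through 7.02% to 9.84% in early S (16 libraries) and from 3.94% through 4.87% to 8.74% in late-S/G2 (10 libraries). In diploid serum cells they ran from 4.94% through 5.34% to 6.37% in G1 (7 libraries), from 7.19% through 7.66% to 9.61% in early S (8 libraries) and from 5.60% through 6.21% to 6.75% in late-S/G2 (7 libraries). In serum the early-S libraries lay above all G1 and all late-S/G2 libraries.

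Within libraries, the trans share rose from G1 to early S by 2.03 points (SD 0.940) in 9 of 9 haploid libraries, with an adjusted p of 0.012 by an exact sign-flip test with Benjamini-Hochberg adjustment. The rise was 1.04 points (SD 0.894) in diploid 2i, seen in 9 of 10 libraries with library 32_33 lower (adjusted p = 0.0277, 100000 permutations), and 2.17 points (SD 0.604) in diploid serum, seen in 7 of 7 (exact adjusted p = 0.0280). It then fell by 1.74 points in 9 of 9 haploid libraries, by 1.42 points in 9 of 9 libraries of diploid 2i cells (exact adjusted p = 0.012 each) and by 1.48 points in 7 of 7 serum libraries (exact adjusted p = 0.0280). Only in serum did both steps use the same libraries, and hence the same early-S cells. In haploid and diploid 2i cells the libraries of the rise and those of the fall overlapped only in part. Early-S means at the rise and at the fall were 8.61% and 8.38% in haploid, and 6.97% and 6.68% in diploid 2i libraries. These 6 calls belong to a family of 86 tests over all measures, tables and steps, of which 59.3% were called, so a call is common here. With contacts and the undigested share as covariates within each library, the rises were 1.81, 1.09 and 2.07 points and the falls were -1.65, -1.37 and -1.37 points in the same order, so the steps were of similar size at equal contacts and digestion. No serum call held without any 1 of the libraries 2_14, 3, 4, 5_10, 7, 8 or 9, where the exact adjusted p lay between 0.0507 and 0.0527 and every direction was kept. Since all 7 serum libraries changed in the same direction, these losses follow from the smallest p that 1 library fewer allows. They do not mark dependence on a particular library. The 6 calls were also lost, with directions kept, where fewer libraries remained, at a minimum of 20 cells per library and phase (adjusted p from 0.0726 by sign-flip permutation) and in cells between the 25th and 75th percentile of depth (adjusted p from 0.158).

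**Figure D1:**
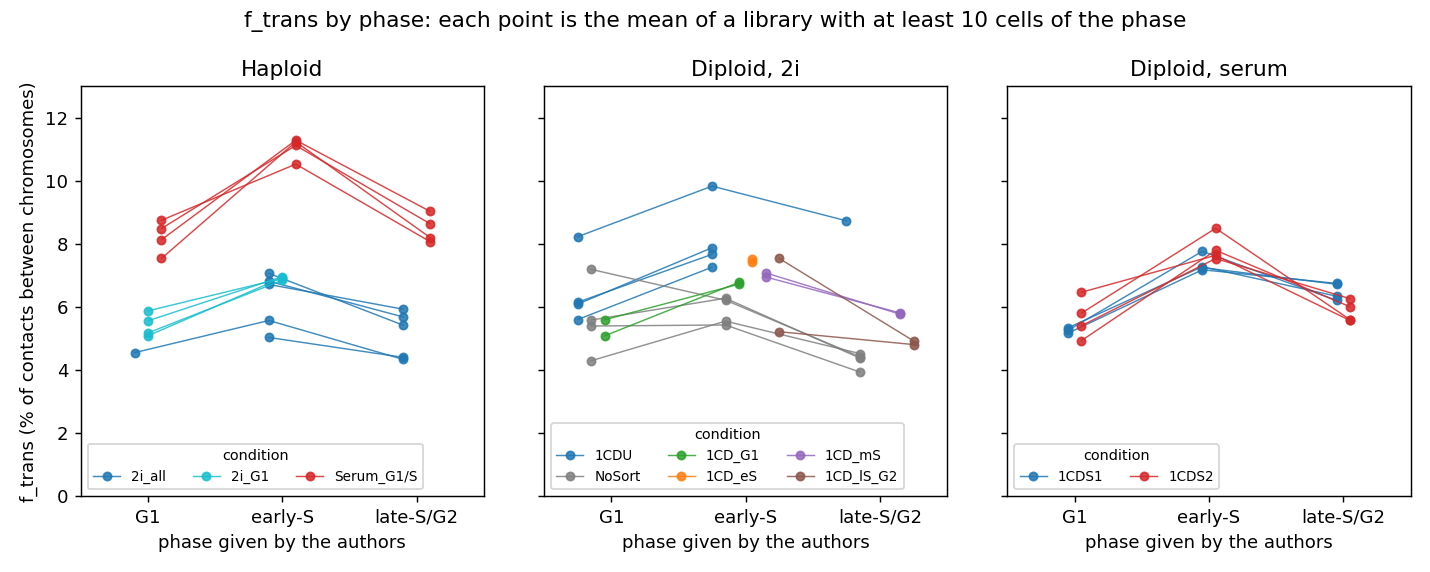
Trans share (percent of a cell's contacts) by phase in the haploid, diploid 2i and diploid serum tables, coloured by condition. Each point is the mean of a library within a condition, with at least 10 cells of the phase. Early-S points are the highest in serum, where those of 1CDS1 lie between 7.19% and 7.77%. Library 1_6 has under 10 early-S cells in each of its conditions and is not shown. The haploid Serum_G1/S libraries lie above all haploid 2i libraries in each phase.

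The alignment score is given table by table, since its scale may differ, and whether its changes differed between tables was not tested. From G1 to early S it fell from 0.292 to 0.229 in 9 of 9 haploid libraries and from 0.324 to 0.289 in 7 of 7 diploid serum libraries, with an exact adjusted p of 0.012 and 0.0280. In diploid 2i libraries the change was -0.00957 (SD 0.0643, 7 of 10 lower, permutation adjusted p = 0.725). With the authors' batch numbers as libraries, a setting chosen after the data were seen, the NoSort libraries fall under 10 cells, and over the remaining 6 libraries the change was -0.0522 (6 of 6 lower, exact adjusted p = 0.0498). From early S to late-S/G2 it rose by 0.0553 (SD 0.0310) in diploid 2i, with 9 of 9 libraries higher and an exact adjusted p of 0.012. At that step the change was 0.0265 in serum (6 of 7 higher, exact adjusted p = 0.0896) and -0.00183 in haploid libraries (3 of 9 higher, exact adjusted p = 0.901). The rise in diploid 2i was 0.0567 and the fall in haploid libraries was -0.0635 with contacts and the undigested share as covariates. The serum fall was lost when any 1 of the same 7 libraries was left out (change between -0.0370 and -0.0308). That loss too follows from the smallest p that 1 library fewer allows. The minimum of 20 cells and the middle range of depth ended the 3 calls of the alignment score as well.

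Library means of the alignment score in haploid cells ran from 0.192 through a median of 0.318 to 0.377 in G1, from 0.142 through 0.283 to 0.322 in early S and from 0.251 through 0.284 to 0.315 in late-S/G2. In diploid 2i cells they ran from 0.145 through 0.248 to 0.324, from 0.180 through 0.252 to 0.294 and from 0.243 through 0.310 to 0.348. In serum cells they ran from 0.269 through 0.317 to 0.386, from 0.236 through 0.277 to 0.330 and from 0.285 through 0.316 to 0.341. The libraries of a table overlapped between phases in every case, so the called changes are seen within libraries rather than between them.

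**Figure D2:**
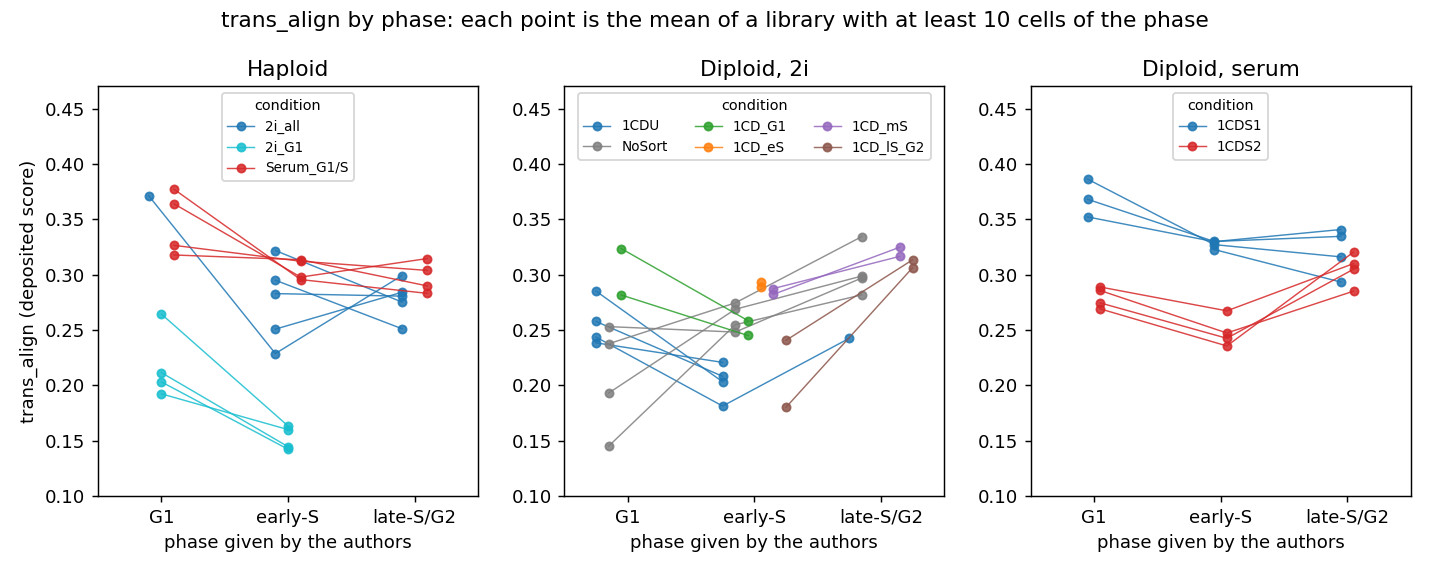
Alignment score (scale not defined) by phase in the 3 tables, coloured by condition. Each point is the mean of a library within a condition, with at least 10 cells of the phase. Haploid G1 libraries spread from 0.192 to 0.377, while haploid late-S/G2 libraries lie between 0.251 and 0.315.

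Where a library held both G1 and late-S/G2 cells, the net course is a description. The trans share was 7.50% in G1 and 7.66% in late-S/G2 over 5 haploid libraries (3 higher), 6.14% and 5.20% over 5 diploid 2i libraries, and 5.47% and 6.16% over 7 serum libraries (5 higher). The alignment score was 0.351 in G1 and 0.298 in late-S/G2 in haploid libraries, lower in 5 of 5. It was 0.215 and 0.291 in diploid 2i libraries, higher in 4 of 5, and 0.324 and 0.316 in serum libraries. Through these phases the trans share thus returned close to its G1 level in haploid cells, while the alignment score ended lower in haploid and mostly higher in diploid 2i libraries. Each of these rests largely on a single condition. Of the 5 haploid libraries 4 are serum libraries, and the 4 diploid 2i libraries that ended higher are NoSort (mean change 0.0958), beside -0.00112 in 1CDU library 11.

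Next to mitosis the trans share was low. Few cells were caught there, with 21 pre-M and 3 post-M cells in the haploid libraries used, 28 and 29 in diploid 2i, and 17 and 6 in serum, so a library was kept from 1 cell upwards. From late-S/G2 to pre-M the haploid trans share fell by 4.17 points, and the alignment score fell from 0.299 to 0.203. Each was lower in 9 of 9 haploid libraries, with an exact adjusted p of 0.042 in a family of 86 tests of which 9.3% were called. Both calls were lost without any 1 of the 9 libraries 1, 2, 3, 7, 8, 17, 18, 19 or 20 (exact adjusted p = 0.0747 in each case). Every library changed in the same direction, so each loss follows from the smallest p that 1 library fewer allows, whichever is left out. In diploid 2i the trans share was 4.83% in late-S/G2 and 2.15% in pre-M, with 6 of 6 libraries lower (exact adjusted p = 0.0995). In serum it was 5.95% and 2.97%, lower in 4 of 4, where the smallest p that 4 libraries allow is 0.125. The alignment score went from 0.279 to 0.240 in diploid 2i (5 of 6 lower, exact adjusted p = 0.433) and from 0.304 to 0.263 in serum (4 of 4 lower).

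On the other side of division, post-M cells of diploid 2i libraries had a trans share of 1.83% ± 1.10 (SD, n = 7) against 4.73% ± 1.43 in G1 cells of the same libraries, higher in G1 in 6 of 7 (exact adjusted p = 0.0995). In serum the values were 3.16% and 5.63% (4 of 4 higher). In haploid libraries they were 4.91% and 7.30% (2 of 3 higher), from 1 post-M cell per library. These 3 haploid post-M cells had a mean alignment score of 0.549 ± 0.0518, against 0.333 ± 0.0284 in G1 (3 of 3 lower in G1). In the diploid tables the post-M and G1 scores were 0.314 and 0.281 in 2i (4 of 7 lower in G1) and 0.309 and 0.290 in serum, and the sign of the change turned without the 2i library 28_29 and without the serum library 5_10 or 9. None of the changes from post-M to G1 passed the adjusted threshold.

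Along the authors' order of cells, cut into 20 bins of equal size, the trans share rose to a broad top and then declined. The order was built from contacts, so these courses carry no test. The trans share was highest in bin 12 in haploid cells (10.3% ± 3.25, SD over 8 libraries), in bin 10 in diploid 2i cells (7.61% ± 1.10, 10 libraries) and in bin 7 in serum cells (8.04% ± 1.44, 6 libraries). It was lowest in bin 20 in haploid (3.62% ± 0.689) and serum cells (4.06% ± 0.592), and in bin 1 in diploid 2i cells (3.46% ± 1.47). The alignment score had its top at the start and its lowest point soon after. It was highest in bin 1 in haploid (0.408 ± 0.0609) and diploid 2i cells (0.353 ± 0.0428) and in bin 2 in serum cells (0.373 ± 0.0568). It was lowest in bin 5 in haploid (0.166 ± 0.0776) and diploid 2i cells (0.164 ± 0.0345) and in bin 4 in serum cells (0.268 ± 0.0580). The low point of the alignment score therefore came bins before the top of the trans share in each table.

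**Figure D3:**
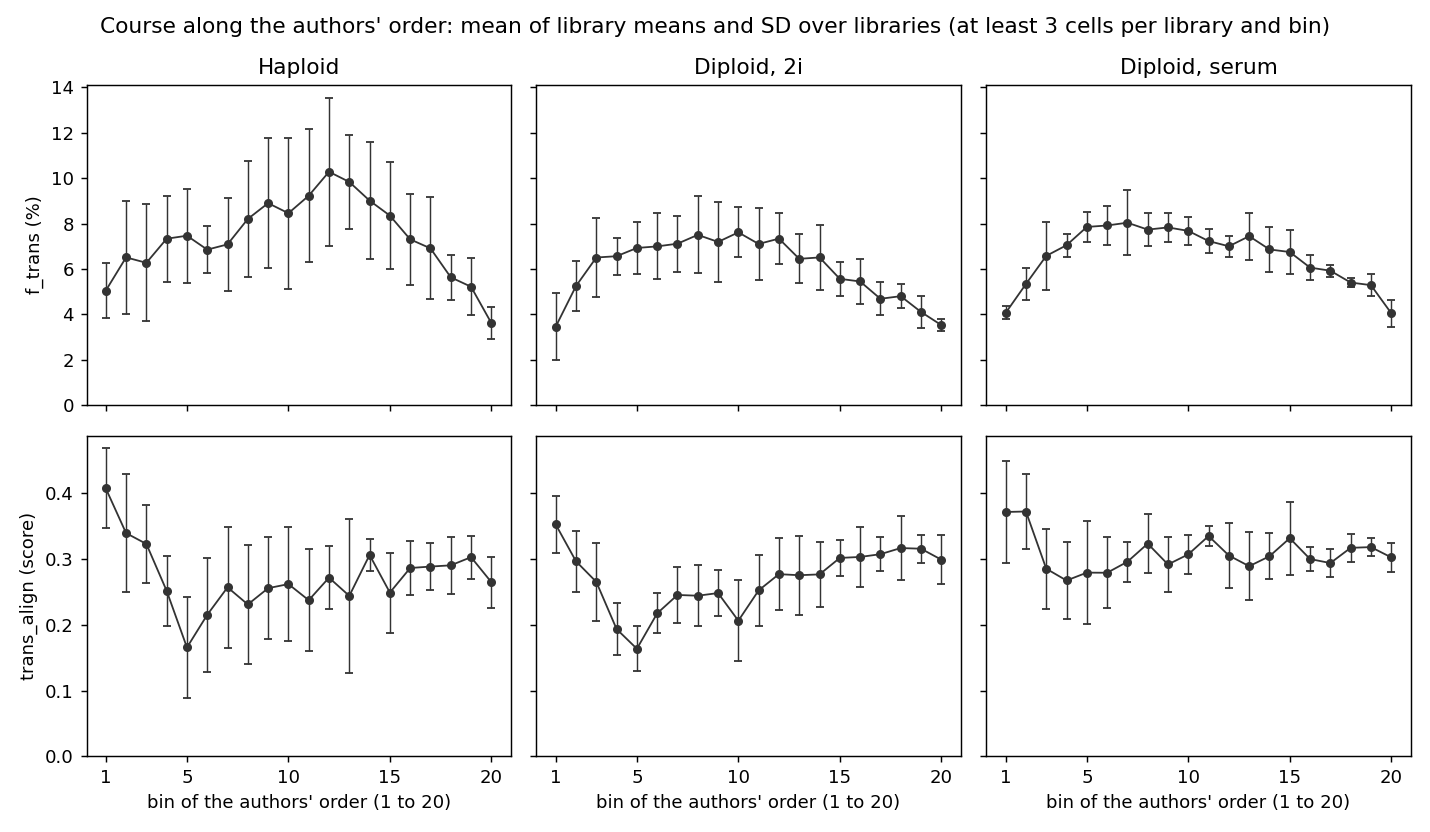
Trans share (percent, upper panels) and alignment score (lower panels) in 20 bins of cells along the authors' order for each table, as the mean of library means with the SD over libraries that have at least 3 cells in the bin. The alignment score falls from 0.408 in bin 1 to 0.166 in bin 5 of the haploid table, while the trans share climbs to 10.3% in bin 12.

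Inside G1 the same order was cut again within libraries, so the values below restate part of that course and carry no test. Each library's G1 cells were split into 3 equal groups by the authors' order. From the first to the last group the alignment score went from 0.361 to 0.195 in haploid (8 of 8 lower), from 0.337 to 0.192 in diploid 2i (6 of 6 lower) and from 0.411 to 0.282 in serum libraries (3 of 3 lower). The trans share went from 5.87% to 7.53% (7 of 8 higher), from 4.99% to 6.96% (6 of 6) and from 4.07% to 6.60% (3 of 3). The mean distance of far contacts within chromosomes (far_mu) lengthened at the same time, from 23.5 to 32.5 Mb, from 22.1 to 31.3 Mb and from 18 to 26.8 Mb. The undigested share stayed close, at 27.97% and 27.5%, 35.1% and 36.2%, and 31.8% in both groups of the serum table.

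Inside late-S/G2 the trans share declined along the order, from 7.86% to 5.34% in haploid (9 of 9 lower), from 5.43% to 4.29% in diploid 2i (8 of 8 lower) and from 6.90% to 5.45% in serum libraries (6 of 6 lower). The alignment score there was 0.271 and 0.296, 0.301 and 0.317, and 0.291 and 0.327. Inside early S the trans share was 7.54%, 8.45% and 8.34% in the first, middle and last group of haploid libraries (last above first in 9 of 11), 6.96%, 7.19% and 6.98% in diploid 2i (8 of 14) and 7.86%, 7.68% and 7.33% in serum libraries (1 of 6). Haploid serum cells climbed further within early S, from 8.14% in bin 6 of the order to 13.1% in bin 12. They were lower again in bins 13 and 14, at 10.7% and 10.6%, still in early S.

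The sort gates of the diploid 2i table rest on DNA content and Geminin, a protein present from S phase to mitosis, and not on contacts. Over all passing cells whatever their group, the 2 G1-gate libraries with at least 10 cells had a trans share of 5.79% and 5.49%. The early-S gate had 7.50% and 7.41%, the mid-S gate 6.06% and 6.30%, and the late-S and G2 gate 4.86% and 4.51%. The libraries of different gates did not overlap, and the undigested share was alike, from 34.4% to 37.3%. The alignment score was 0.276 and 0.308, 0.290 and 0.292, 0.306 and 0.307, and 0.297 and 0.305 in the same order of gates, which overlapped. With 2 libraries a gate no test was run.

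In the haploid line the trans share was higher in serum than in 2i in each phase. The serum libraries 17, 18, 19 and 20 had G1 means of 8.49%, 7.54%, 8.76% and 8.14%. Their early-S means were 11.1%, 11.2%, 10.5% and 11.3%, and their late-S/G2 means were 8.64%, 8.21%, 8.08% and 9.04%. The haploid 2i libraries lay between 4.56% and 5.88% in G1 (5 libraries), between 5.04% and 7.07% in early S (9 libraries) and between 4.34% and 5.93% in late-S/G2 (5 libraries). The media did not overlap in any of the 3 phases.

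Averaged over the phases, the haploid trans share was 9.26% in serum and 5.65% in 2i, a difference of 3.61 points with 4 against 9 libraries (exact permutation test of library labels, two-sided p = 0.0014, adjusted p = 0.0070). In this comparison 4 of 15 measures were called, or 26.7%. Serum cells were deeper and better digested, with 154988 against 65840 contacts and 25.9% against 31.8% undigested ends. Moved to common contacts and undigested share by the slopes within libraries, the difference was 2.81 points. Over cells at or under 15% it was 3.06 points, against 2i_all libraries alone 3.94 and against 2i_G1 libraries alone 3.47 points. All haploid serum cells bear the condition name Serum_G1/S, so medium and sort cannot be told apart. Serum culture also came with feeder cells, their depletion and the sort that followed, which cannot be told apart from medium either.

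The haploid alignment score was 0.316 in serum and 0.249 in 2i, a difference of 0.0671 (exact permutation adjusted p = 0.0545), and here the 2 haploid 2i conditions lay apart. In G1 the 2i_G1 libraries 11, 12, 13 and 14 had alignment scores of 0.212, 0.265, 0.203 and 0.192, against 0.371 in the 2i_all library 7. In early S they had 0.145, 0.163, 0.142 and 0.160, all below the 2i_all libraries 1, 3, 6, 7 and 8 with 0.322, 0.251, 0.295, 0.229 and 0.283. The serum libraries had 0.314, 0.296, 0.312 and 0.298 in early S. Against 2i_all libraries alone the difference of serum was 0.00790, and against 2i_G1 libraries alone it was 0.140 (exact permutation adjusted p = 0.0476), so the size of this difference depends on which 2i libraries stand beside serum. The difference also passed the threshold when 2i library 1, 3, 7 or 8 was left out (difference between 0.0688 and 0.0794, exact permutation adjusted p from 0.0242 to 0.0485) and when moved to common contacts and undigested share (0.0667, exact permutation adjusted p = 0.0455).

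Along the order, haploid cells of the 2 media lay farther apart in trans share in the middle than at the ends. In bin 1 the trans share was 5.77% in serum and 4.48% in 2i, in bin 12 it was 13.1% ± 0.866 in serum and 7.49% in 2i, and in bin 20 it was 3.45% and 3.72%. The cells of bin 20 differ in phase, since 66.7% of the serum cells there were pre-M and 76.6% of the 2i cells late-S/G2. The alignment score was 0.232 in serum and 0.116 in 2i in bin 5, and 0.249 and 0.275 in bin 20. The 2i cells of bin 5 were all in G1, where 2i_all has only library 7 with at least 10 cells. The 2 conditions of 2i were not separated along the order, so the gap in bin 5 does not compare media alone.

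**Figure D4:**
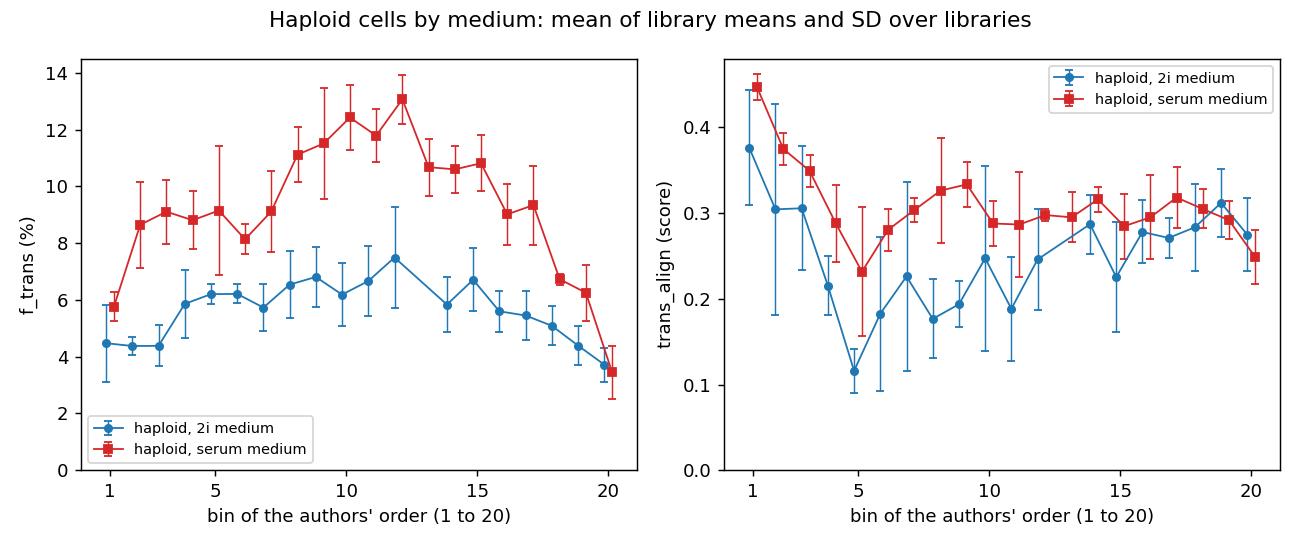
Trans share (percent) and alignment score of haploid cells along the authors' order by medium, as the mean of library means with the SD over libraries. The trans share of serum cells reaches 13.1% in bin 12, where 2i cells are at 7.49%, and both media lie below 4% in bin 20. The 2i course joins 2i_all and 2i_G1 cells.

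Haploid cells above 15% trans share came mostly from serum, with 57 of 581 serum cells (9.81%, exact Clopper-Pearson 95% interval 7.52 to 12.5) and 5 of 666 2i cells (0.751%, 0.244 to 1.74). The intervals cover counting error only. The 4 larger serum libraries contributed alike, with 13 of 154 cells in library 17, 14 of 138 in library 18, 15 of 145 in library 19 and 15 of 130 in library 20. Of the 57 serum cells, 46 were in early S, 8 in G1 and 3 in late-S/G2.

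In early S of these 4 libraries the cells above 15% were slightly better digested and deeper than the rest. Their undigested share was 24.4% against 25.7% in the remaining early-S cells, lower in 4 of 4 libraries. They held 200214 against 158652 contacts, more in 4 of 4. Their alignment score was 0.254 against 0.314, lower in 4 of 4, and their far contacts spanned 30.0 against 27.2 Mb, longer in 4 of 4. Their replication score, a measure of DNA copy gain in S phase by its name, was 1.29 against 1.24 and their duplicated share of fragment ends was 1.85% against 1.57%, each higher in 4 of 4. Their trans compartment score, a measure of compartment contrast between chromosomes, was 0.237 against 0.260 and their largest coverage deviation 0.389 against 0.493, each higher in 1 of 4. These cells were chosen by their trans share, so the values are a description.

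Among diploid 2i cells outside the 4 named sort gates, the condition 1CDU had a higher mean trans share than NoSort, and its libraries were better digested. In early S the 1CDU libraries 11, 12, 13 and 2_14 had a trans share of 9.84%, 7.68%, 7.88% and 7.27%. The NoSort libraries 28_29, 30_31, 32_33 and 34_35 had 6.28%, 5.56%, 6.22% and 5.43%, all lower. In G1 the values were 8.24%, 6.15%, 6.10% and 5.61% in 1CDU and 5.59%, 4.30%, 7.20% and 5.40% in NoSort, which overlapped. Over the phases the means were 7.81% and 5.27%, a difference of 2.54 points (exact permutation p = 0.0286, the smallest that 4 against 4 libraries allow, adjusted p = 0.0612). In this comparison 0 of 15 measures were called, or 0%, and 7 had an unadjusted p under 0.05.

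The undigested share was 32.5% in 1CDU and 48.4% in NoSort. Moved to common contacts and undigested share, the difference in trans share was 0.793 points (exact permutation p = 0.171). Library 11 had the lowest undigested share in early S at 27.4%, against 38.6%, 36.8% and 42.6% in libraries 12, 13 and 2_14. It is the only 1CDU library with at least 10 late-S/G2 cells (8.74%). Without it the difference was 1.03 points, over G1 and early S only. The alignment score was 0.234 in 1CDU and 0.257 in NoSort (exact permutation adjusted p = 0.390), and without library 11 the difference turned to 0.00122.

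Diploid serum cells of the conditions 1CDS1 and 1CDS2 had a trans share of 6.38% and 6.46% (exact permutation adjusted p = 0.642), and 0 of 13 measures were called, or 0%. Their alignment scores lay apart in G1 and early S. In G1 the 1CDS1 libraries 2_14, 3 and 4 had 0.352, 0.368 and 0.386, and the 1CDS2 libraries 5_10, 7, 8 and 9 had 0.275, 0.269, 0.286 and 0.289. In early S the 1CDS1 libraries 2_14, 3, 4 and 5_10 had 0.330, 0.330, 0.327 and 0.323, and the 1CDS2 libraries had 0.243, 0.236, 0.247 and 0.267. In late-S/G2 they overlapped, with 0.341, 0.335, 0.316 and 0.293 against 0.305, 0.320, 0.285 and 0.310. The mean difference was 0.0615 (exact permutation p = 0.0286, the smallest possible, adjusted p = 0.124), and 3 measures had an unadjusted p under 0.05. Library 5_10 holds cells of both conditions and was counted on each side, so the test treats 7 libraries as 8 values. Its 2 early-S values, 0.323 and 0.267, kept the same order. Without it the difference was 0.0639 over 3 against 3 libraries (exact permutation adjusted p = 0.325, where the unadjusted p cannot go below 0.10).

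The 3 tables were set side by side for the trans share only. It was 7.05% in haploid and 6.07% in diploid 2i libraries over the phases (13 against 17 libraries, permutation adjusted p = 0.141), in a comparison of 6 measures of which 66.7% were called. Passing haploid cells reach higher values than passing diploid cells. Without haploid cells above the highest passing diploid value, the difference was 0.639 instead of 0.984 points. With haploid libraries of 2i alone the difference was -0.413. When only conditions not named for a gate were used it was -0.779, so its direction rests on the haploid serum libraries. It was 6.51% in diploid serum and 6.07% in diploid 2i libraries (8 against 17 libraries, exact permutation adjusted p = 0.400), again with 66.7% of 6 measures called. Without the 2i library 11 that difference was 0.718 points (exact permutation adjusted p = 0.0101). Library 2_14 was counted on both sides, and the difference without it was 0.451 points. Both comparisons share the diploid 2i libraries. Diploid serum cells also differed from 2i cells in feeder cells, their depletion and the sort that followed, which cannot be told apart from medium. Every lane in the cell list carried a single library, so effects of the 2 cannot be told apart.

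Whether the phase changes differed between conditions or tables was tested in 16 comparisons of within-library changes, of which 0 passed the adjusted threshold, or 0%, while 7 had an unadjusted p under 0.05. In haploid cells the trans share rose from G1 to early S by 2.82 points in serum and 1.39 in 2i (exact permutation p = 0.0159, adjusted p = 0.0676). It then fell by 2.56 and by 1.09 points (exact permutation p = 0.0079, adjusted p = 0.0635). From G1 to early S the trans share rose by 1.64 points in 4 of 4 1CDU libraries, while in NoSort the mean change was 0.251 with library 32_33 at -0.978. The alignment score changed by -0.0529 in 1CDU, lower in 4 of 4, and by 0.0543 in NoSort, higher in 3 of 4 (exact permutation adjusted p = 0.0676 for each measure). From early S to late-S/G2 the alignment score changed by -0.00621 in 1CDS1 and by 0.0569 in 1CDS2 (exact permutation adjusted p = 0.0676). The rise of the trans share from G1 to early S was 2.17 points in diploid serum and 1.04 in diploid 2i libraries (exact permutation p = 0.0074, adjusted p = 0.0635). Here too the libraries 5_10 and 2_14 count on both sides of their comparisons.

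Within libraries, cells with a larger undigested share had a smaller trans share. The relations are given as Spearman's rho over the cells of 1 phase in 1 library with at least 20 such cells, 71 sets in all, as a description without a p-value, since the cells share library and depth. The trans share and the undigested share had a rho below 0 in 68 of 71 sets, with a median of -0.301. In early S the mean rho was -0.316 in haploid (below 0 in 11 of 11 libraries), -0.383 in diploid 2i (14 of 14) and -0.353 in serum libraries (6 of 6). In cells between the 25th and 75th percentile of depth the relation was weaker or turned in some sets, with -0.0817 in haploid early S (5 libraries) and 0.0549 in diploid 2i G1 (3 libraries).

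When each library's early-S cells were split into 3 equal groups by undigested share, the trans share of the most and the least undigested group was 7.56% and 8.69% in haploid (lower in 10 of 11), 6.43% and 7.64% in diploid 2i (14 of 14), and 7.15% and 8.17% in serum libraries (6 of 6). In G1 it was 5.88% and 7.44% in haploid (8 of 8), 5.91% and 6.39% in diploid 2i (5 of 6) and 5.12% and 5.65% in serum libraries (2 of 3). In late-S/G2 it was 6.02% and 6.75% in haploid (8 of 9), 4.52% and 5.19% in diploid 2i (8 of 8) and 5.72% and 6.64% in serum libraries (6 of 6). These differences, of about the size of the mean change between phases or less, were found at a fixed phase. In haploid cells the relation in G1 shrank from -0.337 to -0.0952 with contacts held constant by partial correlation, and to -0.0621 in cells between the 25th and 75th percentile of depth.

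The relation of the trans share to depth varied by table. Its mean rho with contacts in G1, early S and late-S/G2 was 0.394, 0.280 and 0.120 in haploid libraries, above 0 in 8 of 8 in G1. It was 0.0510, 0.167 and 0.00363 in diploid 2i, and 0.183, 0.0452 and 0.0418 in serum libraries. The deepest and shallowest of 3 equal groups of haploid G1 cells had a trans share of 7.59% and 5.76% (higher in 8 of 8), while late-S/G2 cells had 4.92% and 4.83% in diploid 2i and 6.24% and 6.27% in serum libraries.

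The alignment score was only weakly tied to the technical measures. Its rho with the undigested share was below 0 in 43 of 71 sets with a median of -0.0370, and with contacts above 0 in 44 sets. The largest mean values were in diploid 2i G1 cells, with -0.188 for the undigested share (6 of 6 below 0) and 0.203 for contacts (6 of 6 above 0), and in serum late-S/G2 cells with -0.173 for the undigested share (6 of 6 below 0).

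The alignment score was tied much more closely to the reach of contacts within chromosomes. Its rho with the mean distance of far contacts was below 0 in 71 of 71 sets, between -0.916 and -0.237, with a median of -0.703. By phase the mean rho was -0.766, -0.767 and -0.658 in G1 of the haploid, diploid 2i and serum tables, -0.655, -0.764 and -0.620 in early S, and -0.563, -0.661 and -0.527 in late-S/G2. Cells with longer far contacts thus had lower alignment scores in every library and phase measured. The trans share went with that distance the other way, with a rho above 0 in 60 of 71 sets.

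The trans share and the alignment score had no single relation to each other. Their rho was above 0 in 34 sets and below 0 in 37. In G1 its mean was -0.292 ± 0.162 in haploid (below 0 in 8 of 8 libraries), -0.185 ± 0.201 in diploid 2i (4 of 6) and -0.223 ± 0.189 in serum libraries (3 of 3). In early S it was -0.0425, -0.0182 and 0.0896. In late-S/G2 it was -0.0891 in haploid (above 0 in 3 of 9), 0.134 in diploid 2i (7 of 8) and 0.166 in serum libraries (6 of 6). A negative relation in G1 thus gave way to none or to a weakly positive one later in the cycle.

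**Figure D5:**
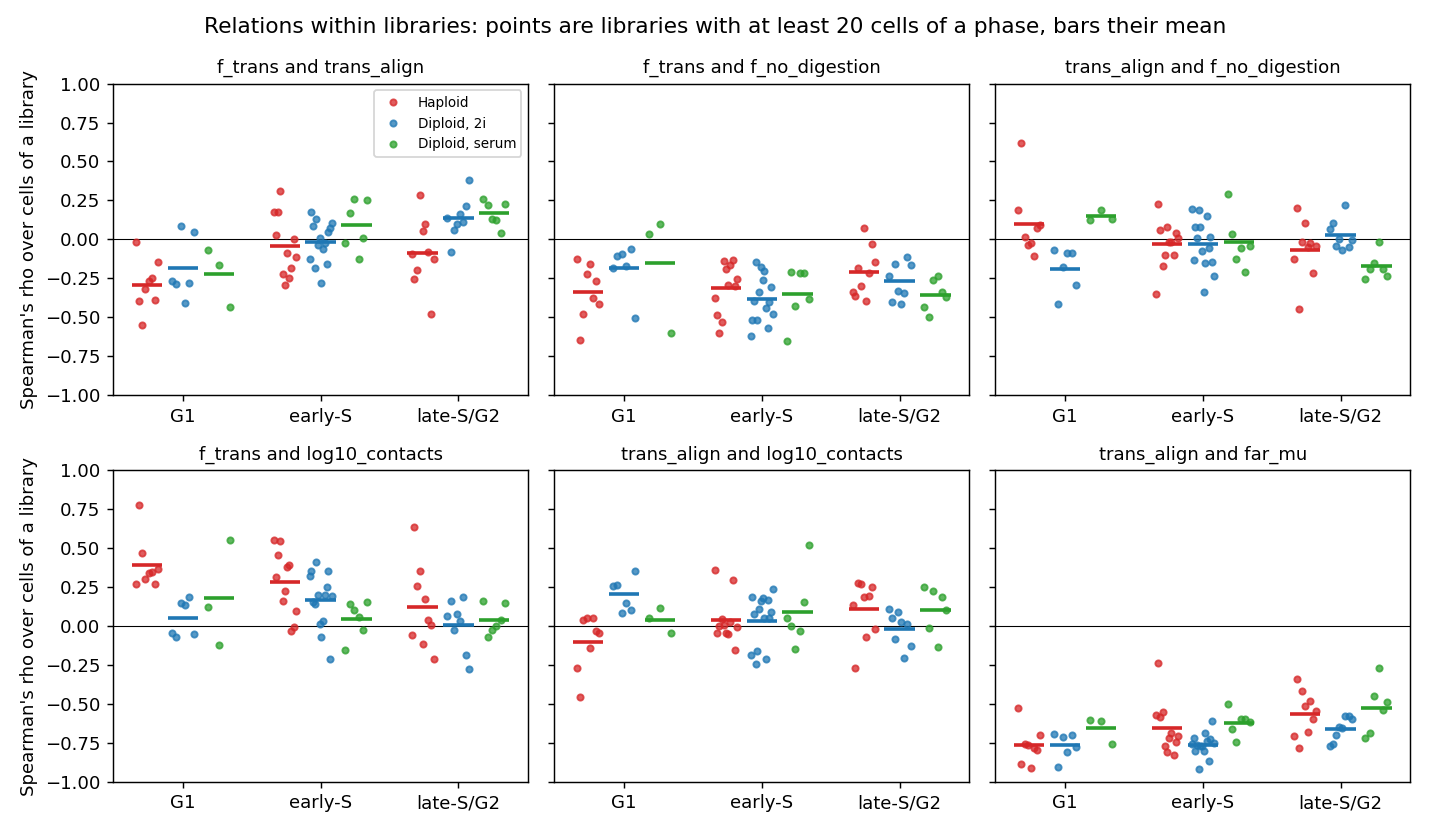
Spearman's rho within libraries for pairs of measures by phase and table, with a point for each library with at least 20 cells of the phase and a bar for the mean. For the trans share with the undigested share 68 of 71 points lie below 0, and for the alignment score with the distance of far contacts 71 of 71 do.

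The relations of both measures to the contact bands, which the authors use to describe the cycle and which are tied to the order of cells, varied by phase. In late-S/G2 the trans share had a mean rho of -0.637, -0.458 and -0.490 with the short-range share in the haploid, diploid 2i and serum tables, in G1 of 0.339, 0.394 and 0.740, and in early S of 0.153, -0.0350 and -0.112. With the share of contacts in the band named mitotic it had -0.271, -0.387 and -0.598 in G1, and 0.431, 0.245 and 0.313 in late-S/G2. The alignment score had 0.452, 0.564 and 0.615 with that band in G1, above 0 in every library measured, and 0.0532, 0.166 and 0.0434 in late-S/G2, where 5 of 9, 6 of 8 and 4 of 6 libraries were above 0.

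Across libraries no relation of the 2 measures to the undigested share, to depth or to each other held after adjustment. Of 35 relations between library means in 7 sets of 1 table, medium and phase, 0 passed a permutation test after adjustment (smallest adjusted p = 0.256 for Pearson's r and 0.292 for Spearman's rho), while 5 and 2 had an unadjusted p under 0.05. The sign of r turned in 16 of 35 when the 2 libraries farthest from the median were left out. In early S of diploid 2i libraries without NoSort (n = 12), the alignment score rose with log10 contacts (r = 0.724, permutation p = 0.0096, rho = 0.727, permutation p = 0.0094, and r = 0.582 without 2 libraries). That set joins 1CDU with the sort gates. Over all phases, 1CDU libraries had 107746 to 157366 contacts and alignment scores of 0.206 to 0.227. Gate libraries with at least 10 cells had 186293 to 317256 contacts and scores of 0.276 to 0.308. Condition and depth cannot be told apart there. In early S of haploid 2i libraries (n = 9), the trans share and the undigested share had r = -0.729 (exact permutation p = 0.0393) and rho = -0.150 (exact permutation p = 0.708), and without the 2 farthest libraries r = 0.761, so that relation rests on those libraries.

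Single cells varied more than libraries did in most phases. For the trans share the SD between cells of a library averaged 2.59, 2.34 and 1.99 points in haploid G1, early S and late-S/G2, beside an SD between libraries of 1.64, 2.25 and 1.85 points. In diploid 2i cells the values were 1.98, 1.67 and 1.10 beside 1.10, 1.13 and 1.37 points, and in serum cells 1.48, 1.56 and 1.20 beside 0.477, 0.806 and 0.362 points. The SD between cells shrank from G1 to late-S/G2 in the 3 tables. For the alignment score the SD between cells was 0.125, 0.101 and 0.0919 in haploid cells beside 0.0755, 0.0702 and 0.0183 between libraries, so late-S/G2 libraries were close to each other while their cells were not. The phases hold unlike libraries, since no 2i_G1 library, low in G1 and early S, has a late-S/G2 value. Over the 5 haploid libraries with both G1 and late-S/G2 values, the SD between libraries was 0.0272 and 0.0122.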

How the data were processed

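Features of single cells from Hi-C libraries were taken from 3 tables. Nuclear RNA was left out. Per the submitters' processing notes, reads were aligned with Bowtie2 to mm9. Per the file headers, the contacts of a cell are given as a count. The deposited f_trans, f_no_digestion, short-range, mitotic-band and duplicated shares are each a fraction, shown in percent, whose denominators are not stated. The deposited trans_align, replication, compartment, insulation and coverage columns are scores of undefined scale. Loop enrichments, deposited on a scale taken to be log2 from its range, entered only the family of tests. Far distance is deposited in bp. The phase, the order, the condition and the quality flag are the authors'.

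Each GEO sample was treated as a library, separately per table, and joined through batch numbers (24 cells of diploid 27 by the number in its title). The members, lists and tests were chosen with earlier results of these data known. All measures were tested and only f_trans and trans_align reported, by 2-sided sign-flip tests of within-library changes (exact under 10 libraries) and permutation of library labels (exact if either side held under 10), otherwise with 100000 resamples, with Benjamini-Hochberg adjustment and a threshold of 0.05. Comparisons averaged phases with equal weight. Relations were Spearman's rho. The rule for named items was that no gene is named and that both members are described in full. Added after seeing the data were the batch number as library, sets of haploid libraries, cells at or under 15%, percentiles and common depth for conditions, pairs with far distance, band and order, leave-one-out next to mitosis, exclusion of libraries with both media or both conditions, and sets for relations across libraries.

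The number of libraries, and of passing cells in each (4 to 162), limits the precision. Python 3.11.15, scipy 1.17.1, numpy 2.4.6, matplotlib 3.10.9 and pandas 2.3.3 were used. With 9 simulated libraries of 30 cells and 300 features, the phase test called 100.0% of the 150 that were changed and 0.667% of the others. For 13 libraries and 15 features, of which 5 changed, the comparison called 95.0% and 3.0%. The simulated shifts were large beside the simulated spread, so these percentages do not give the power for smaller differences.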

Additional observations from a re-analysis of the deposited data

Results flagged for a closer look

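Of 78 groups of 4 to 10 libraries, 2 held a library that stood apart from the others by more than Dixon's 95% limit, and chance gives about 1 in 20 groups. In early S of the diploid serum condition 1CDS1, library 2_14 had a trans share of 7.77%, while the other libraries lay between 7.19% and 7.28%. From early S to late-S/G2 in diploid 2i, the alignment score of library 25, of the late-S and G2 gate, rose by 0.126, while the other libraries rose by 0.0270 to 0.0728.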

How the results depend on the processing

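The 6 phase changes of f_trans kept their direction under every alternative that could be run, and all kept their call with medians, covariates, log2 or log2 odds. With a minimum of 20 cells, fewer libraries remained and no call was kept (adjusted p from 0.0726): f_trans G1 to early S 2.15 haploid, 1.57 in 2i and 2.22 in serum, early S to late-S/G2 -1.89, -1.44 and -1.41, trans_align G1 to early S -0.0534 haploid and -0.0396 serum, and early S to late-S/G2 0.0396 in 2i and 0.0106 haploid, the last reversed. In cells between the 25th and 75th percentile of contacts these were 1.94, 1.79, 2.17, -1.97, -1.35, -2.13, -0.0580, -0.0358, 0.0333 and 0.0158 (adjusted p from 0.158). The next values are for conditions not named for a gate (sign-flip adjusted p from 0.0584). The haploid change from G1 to early S could not be run there, since only library 7 holds both phases. There f_trans changed by 0.947 (2i) and 2.17 (serum), then -1.09 (haploid), -1.46 and -1.48. For trans_align the changes were 0.000734 (2i, reversed) and -0.0348 (serum), then 0.00223 (haploid, reversed) and 0.0454 (2i). With a minimum of 5 cells the early S to late-S/G2 change of trans_align was 0.00603 (haploid, reversed) and 0.0261 (serum, now called). With the batch number as library trans_align fell by 0.0522 from G1 to early S in 2i (now called, 6 libraries).

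Leaving out 1 library at a time gave, from G1 to early S in serum, 2.06 to 2.36 for f_trans and -0.0370 to -0.0308 for trans_align, and then -1.66 to -1.25 for f_trans. It gave -0.0109 to 0.00376 for haploid trans_align from early S to late-S/G2, turning without 1, 6 or 17. Toward pre-M it gave -4.52 to -3.79 and -0.107 to -0.0801 in haploid, and from post-M to G1 -0.0644 to 0.00012 (2i) and -0.0908 to 0.0267 (serum) for trans_align. Ranges were 0.0598 to 0.0794 for trans_align by haploid medium, 1.03 to 2.76 and -0.0332 to 0.00122 for f_trans and trans_align of 1CDU less NoSort, and 0.321 to 0.718 for f_trans of serum less 2i.

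Between conditions, haploid trans_align was 0.0667 at common contacts and digestion and 0.140 against 2i_G1, both now called. For 1CDU less NoSort, f_trans was 2.01 with a minimum of 5 cells and 2.52 within the percentiles, and trans_align -0.0534 within them, all now called. The f_trans difference of 1CDS1 less 1CDS2 reversed to 0.178 with 5 cells. Haploid less 2i f_trans reversed to -0.779 (conditions not named for a gate) and -0.413 (haploid 2i). Labels give haploid and diploid libraries the same numbers, which mark no shared batch, so samples share only a number. The replicate block gave 0.523 over 5 pairs with 2i (exact p = 0.812) and -1.44 over 3 pairs with serum.

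Within the percentiles, rho of f_trans with the undigested share was -0.0621 (haploid G1; -0.0952 partial), -0.0817 (haploid early S), 0.0549 (2i G1, reversed), -0.419 (2i late-S/G2) and -0.252 (serum late-S/G2), and with trans_align -0.401 (2i G1) and 0.0643 (serum G1, reversed, 1 library). Reversed too were f_trans with contacts at -0.00347 (haploid early S, percentiles), and by partial correlation -0.0137 and -0.169 (2i early S and late-S/G2), -0.0859 and -0.122 (serum). With duplicated ends trans_align reversed at -0.166 (haploid late-S/G2, percentiles) and -0.116 (serum late-S/G2, partial) and f_trans at -0.0828 (serum G1, partial). In percentiles, trans_align with contacts was 0.0958 (2i late-S/G2), and the trans compartment score gave -0.142 with f_trans (serum G1) and -0.146 with trans_align (serum late-S/G2). Except where stated, the cause was not tested.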
